A study of Mus musculus with 22 samples.

Results

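Oocytes with either of 2 loss-of-function alleles of Dicer were compared directly, Dicer SOM/SOM against Dicer dMT/dMT. The samples were chosen by genotype and run: 3 Dicer SOM/SOM and 4 Dicer dMT/dMT samples of the single-end run, 7 of the 22 samples of the series. All were fully grown germinal vesicle (GV) oocytes, which are arrested in meiotic prophase, and the methods name the mice as C57BL/6. The methods also give an age range and say that females were superovulated or not stimulated. The labels give no age for these samples. Dicer dMT/dMT mice lack the MTC retrotransposon promoter in intron 6 of Dicer1 on both copies. Dicer SOM/SOM mice carry a changed allele on both copies. The line goes back to a single embryonic stem cell clone and was then crossed onto C57BL/6. Whether other sequence of the stem cells remained in it was not tested. In the allele an HA tag and the joined coding exons replace the stretch from intron 2 to intron 6. No promoter of intron 6 is left. The 3 genotypes thus stand in an order of Dicer1 transcript: wild type (3 samples of the same run), Dicer dMT/dMT and Dicer SOM/SOM. The question was what the further loss adds, and which genes do not follow the order.

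Dicer is the RNase that cuts long double-stranded RNA into small interfering RNAs (siRNAs) and microRNA precursors into microRNAs. Mouse oocytes use a shortened form, Dicer O, which lacks the amino-terminal helicase part, cuts long double-stranded RNA efficiently and is transcribed from the MTC element. An adjacent MTA element can start a similar short form and is left in place by the dMT deletion. In mouse oocytes the siRNAs arise from retrotransposons and from pseudogene transcripts paired with their parent mRNAs, whereas microRNAs have little activity there. The 2 primers of the study that read the first exons of the short forms are shown because they mark what sets the alleles apart, together with a primer in a coding exon that all alleles keep. Both short-form primers fell inside intron 6 of the full-length transcript (GRCm38, chr12:104724071-104728332, minus strand) and matched transcripts of Dicer1 and of no other gene. The first is at chr12:104727330-104727353, the second at chr12:104726302-104726322 and the coding one, in exon 12, at chr12:104710632-104710655.
mDcr_AltE1_Fwd: ctctgccttcaggttctgacttcc
mDcr_AltE2_Fwd: actgctttggtgatcaacagc
mDcr_E12_Fwd: gattaactcacctcttcgagcctc

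The total count was 49106080 to 83243024 in the Dicer dMT/dMT samples, and 47741738, 63770201 and 6468380 in Dicer SOM/SOM replicates 1, 2 and 3. Replicate 3 was therefore the shallowest, and its log2 level in counts per 1000000 (CPM) correlated with those of the other Dicer SOM/SOM samples at r = 0.950 and 0.951 across genes, against at least 0.979 within each of the other genotypes. A count of 3 in a sample, taken as the floor, is 0.435 CPM in replicate 3 and 0.0355 to 0.0626 CPM in the other 6 mutant samples. Oocyte markers were high in all samples. The summed level of 12 markers was 13900 to 15800 CPM in Dicer dMT/dMT and 14400 to 15300 CPM in Dicer SOM/SOM. Of the 12, 0 differed, against 7.35% of all genes. Of 22 granulosa and cumulus markers, 20 were tested and 1 was called, higher in Dicer SOM/SOM (5%, against 4.03% of all genes). The summed level of that list was 163 to 227 CPM in Dicer dMT/dMT and 187 to 229 CPM in Dicer SOM/SOM. The haemoglobin genes Hbb-bs and Hbb-bt had no count in any of the samples. Fewer cells of a type and less RNA per cell cannot be told apart in such bulk samples, and the labels do not say that the samples came from separate animals, so p-values measure the spread between these samples.

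Dicer1 fell with each step. It stood at 1003, 1057 and 1001 CPM in wild type, at 536, 479, 428 and 509 CPM in Dicer dMT/dMT, and at 52.9, 54.9 and 41.9 CPM in Dicer SOM/SOM. No genotype overlapped another, and the lone Dicer dMT/WT sample, at 718 CPM, lay between wild type and Dicer dMT/dMT. From 488 CPM ± 46.2 (SD, n = 4) to 49.9 CPM ± 6.96 (SD, n = 3) the transcript fell by 3.28 on the log2 scale (SE 0.12, adjusted p = 3.51e-07 in edgeR's quasi-likelihood test), so that Dicer SOM/SOM oocytes kept 10.2% of the level of Dicer dMT/dMT oocytes. The exact two-sided permutation test on the 7 values gave p = 0.0286, the smallest that 35 splits allow. Reads were counted over the whole gene (chr12:104687742-104751952), so the value does not separate the short form from the full-length one.

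**Figure D1:**
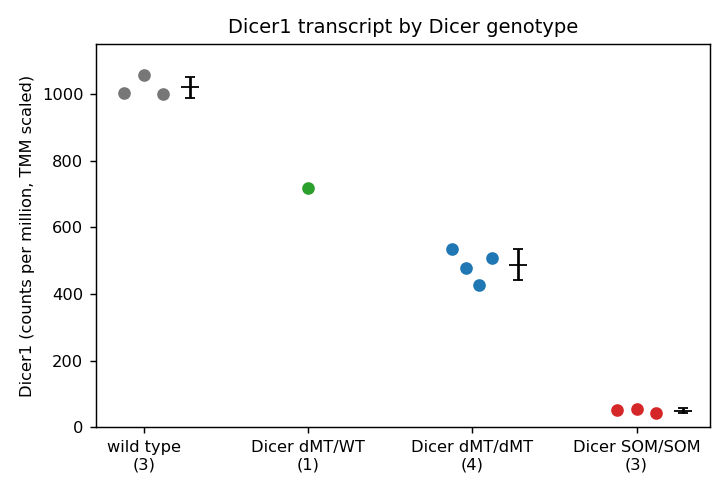
Dicer1 in CPM by Dicer genotype. Points are samples (3 wild type, 1 Dicer dMT/WT, 4 Dicer dMT/dMT, 3 Dicer SOM/SOM) and bars the mean with its SD; the Dicer SOM/SOM samples lie between 41.9 and 54.9 CPM, below the lowest Dicer dMT/dMT sample at 428 CPM.

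Of 23151 genes tested, 1702 (7.35%) differed between the alleles at an adjusted p under 0.05, with 934 higher (4.03%) and 768 lower (3.32%) in Dicer SOM/SOM. The 3 and 4 samples did not overlap in 1645 of the 1702 genes, against 21.4% of all tested genes. Called genes comprised 1248 protein-coding genes, 136 lincRNAs and 120 processed pseudogenes, the last at 3.59% of those tested. The genes fell into 4 patterns when each mutant was also set beside wild type. In one, 586 genes were called in the same direction from wild type to Dicer dMT/dMT and on to Dicer SOM/SOM, with 389 rising and 197 falling further. In the next, which held most of the called genes at 879 (51.6%), Dicer dMT/dMT was not called against wild type and Dicer SOM/SOM was, with 435 genes higher and 444 lower. Another 158 genes were called between the alleles but for neither of them against wild type. In the last, 79 genes (4.64%) were called in opposite directions at the 2 steps. A further 2347 genes were called in the same direction in both mutants against wild type and not between the alleles. These contrasts share samples, so the counts describe the patterns and are not independent of each other. Without the shallow replicate 3, 746 of the genes called higher and 574 of those called lower were still called. Without Dicer dMT/dMT replicate 2, 552 genes were higher and 347 lower.

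**Figure D2:**
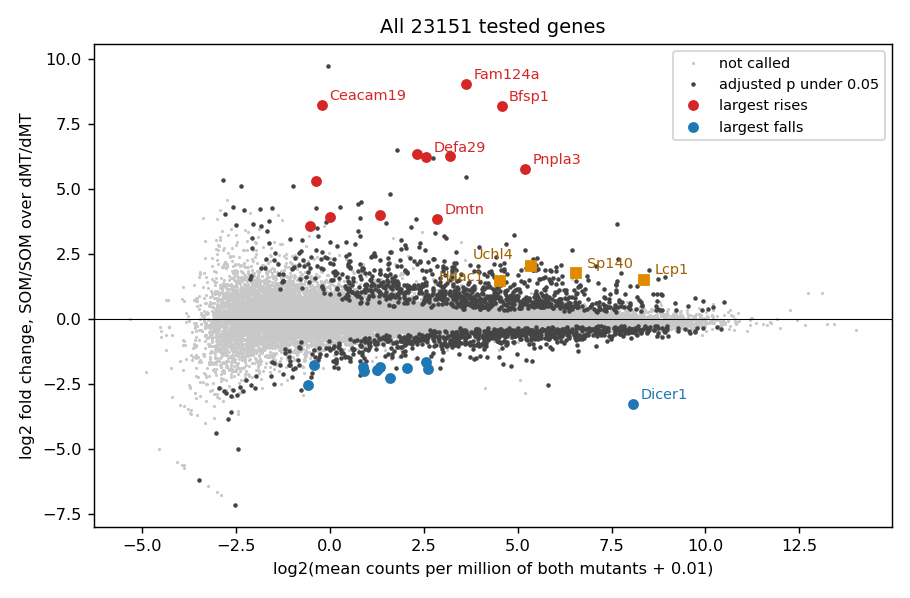
Log2 fold change of Dicer SOM/SOM over Dicer dMT/dMT against the log2 mean level of both mutants for the tested genes; dark points have an adjusted p under 0.05. Red and blue points are the 12 largest rises and 11 of the 12 largest falls that met the naming rule, and squares are siRNA targets or Hdac1; the largest rises sit at low levels, while Lcp1, Sp140, Uchl4 and Hdac1 moved by less at higher levels.

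The largest rises were of genes that stood at 1.5 CPM or less in each wild-type and Dicer dMT/dMT sample. Fam124a read 0.0626, 0.0369, 0.0809 and 0.0118 CPM in Dicer dMT/dMT and 22, 23.5 and 28 CPM in Dicer SOM/SOM, a log2 fold change of 9.02 (SE 0.35, adjusted p = 4.06e-07). All 3 Dicer SOM/SOM samples stood close together, far above the other mutant. Bfsp1, which encodes the lens beaded-filament protein filensin, rose from 0.166 CPM ± 0.139 (SD, n = 4) to 60.5, 49.9 and 32.1 CPM. Ceacam19, of the carcinoembryonic antigen-related cell adhesion family, stood at or under the floor of 3 counts in each Dicer dMT/dMT sample and at 1.95, 2.59 and 0.58 CPM in Dicer SOM/SOM, at least 33.8-fold higher against that floor. The homeobox gene Pknox2 rose from 0.104, 0.442, 0.259 and 0.118 CPM to 16.8, 12.6 and 24.2 CPM. Dmtn, which encodes the actin-bundling protein dematin of the red cell membrane, rose from 0.914 CPM ± 0.172 (SD, n = 4) to 10.9, 9.4 and 20.3 CPM. Ntrk3, the neurotrophin-3 receptor, rose by 3.98 on the log2 scale and Cyp2b9, a cytochrome P450, by 3.9, both from under 0.5 CPM in each Dicer dMT/dMT sample. Defb48, a beta-defensin, and Olfr147, an olfactory receptor, reached means of 1.49 and 1.26 CPM. None of the 12 was called between Dicer dMT/dMT and wild type.

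In 3 of these 12 genes the Dicer SOM/SOM samples differed by over 10 times among themselves. Pnpla3, which encodes a lipid-droplet enzyme, read 100 and 112 CPM in replicates 1 and 2 and 3.77 CPM in replicate 3, against 1.26 to 1.5 CPM in Dicer dMT/dMT. Nfam1, an immunoreceptor gene, read 13.6, 14.7 and 1.02 CPM. Both genes lie on chromosome 15, Nfam1 from position 82997721 and Pnpla3 from 84167816, and both were high in the same 2 samples. Defa29, an alpha-defensin, went the other way, with 0.414, 0.503 and 34.2 CPM. Without replicate 3 the log2 fold change of Defa29 dropped from 6.22 to 1.72 and lost its call (adjusted p = 0.0585), and 43.4% of its 50-base stretches also occur in transcripts of other genes. Among all 934 genes called higher, replicate 3 stood under 50% of both other samples in 27 and over 200% of both in 22.

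The largest falls were smaller in size than the rises and 7 of the 12 ran on from a fall in Dicer dMT/dMT. Rbm47, an RNA-binding protein gene, stepped down from 20 CPM ± 0.211 (SD, n = 3) in wild type to 6.63 CPM ± 1.5 (SD, n = 4) and 1.57 CPM ± 0.97 (SD, n = 3). Tmc7, of the transmembrane channel-like family, stepped from 25.7 to 9.06 and 2.58 CPM, and Slco4c1, an organic anion transporter, from 10.6 to 5.1 and 0.932 CPM. The olfactory receptor pseudogene Olfr1300-ps1 stepped from 22 to 3.85 and 0.855 CPM, and Adgrb1, an adhesion receptor, from 8.98 to 3.66 and 1.38 CPM. Olfr878 fell by 1.79 and Olfr877 by 1.93 on the log2 scale. Olfr877 was at 0 in replicate 3 and at 2.77 and 3.65 CPM in replicates 1 and 2. Ighv1-45, an immunoglobulin variable segment, and Tifab, of the TRAF-signalling adaptor class, fell by 2.54 and 2.01. Tifab lost its call without any one of the 4 Dicer dMT/dMT samples and without replicate 3 (adjusted p = 0.0771 in the latter case).

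**Figure D3:**
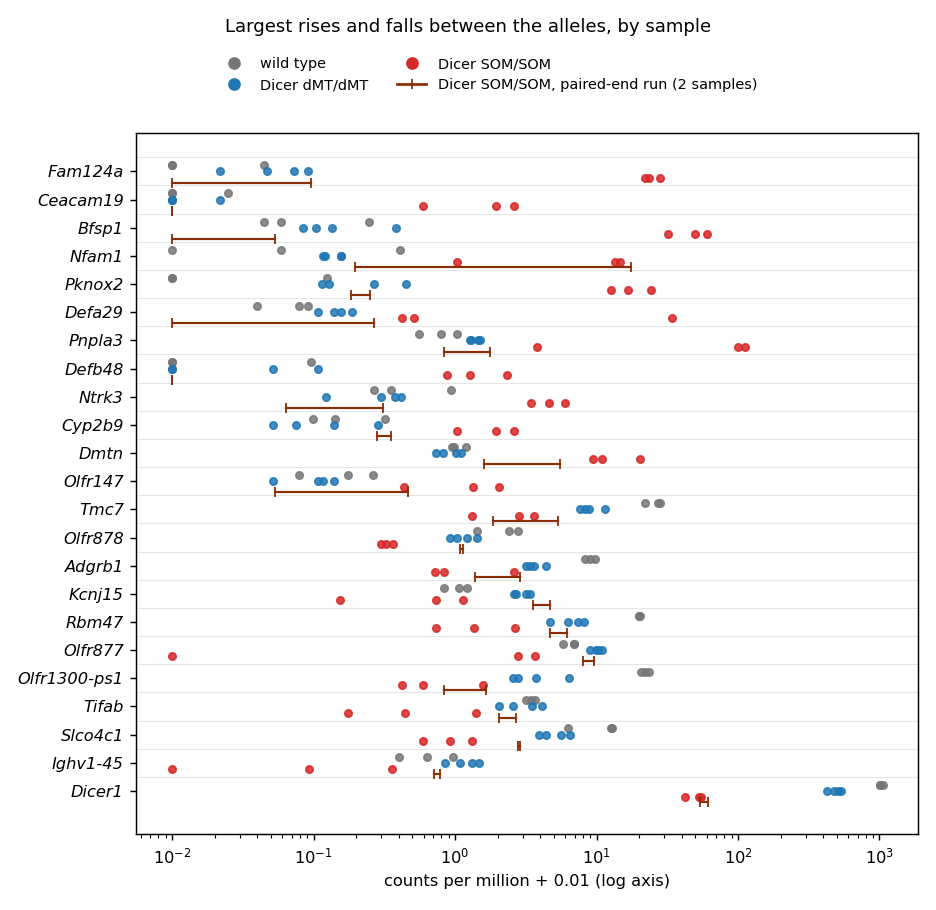
CPM + 0.01 on a log axis for the 12 largest rises (top) and 11 of the 12 largest falls (bottom) that met the naming rule. Points are single-end samples (3 wild type, 4 Dicer dMT/dMT, 3 Dicer SOM/SOM) and the brown line spans the 2 Dicer SOM/SOM samples of the paired-end run; Fam124a, Bfsp1 and Pnpla3 are high in single-end Dicer SOM/SOM samples and low in both paired-end ones.

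Other samples with the same allele were available in a paired-end run: 2 of Dicer SOM/SOM oocytes that were also Mili-DAH/WT (ages 13 and 17 weeks), and 4 of Dicer SOM/WT, Mili-DAH/WT oocytes (10 to 38 weeks). That run holds no Dicer dMT/dMT sample, so its contrast compares the SOM allele on both copies with 1 copy. The run and the Mili allele differ from the single-end samples. Age varied within the paired-end run and is not given for the single-end samples. Mili-DAH/DAH samples of that run entered the fit's estimate of spread and not the contrast. Dicer1 lay there between 513 and 760 CPM in the controls and between 53.7 and 61.6 CPM in Dicer SOM/SOM (log2 fold change −3.47, adjusted p = 5.16e-08). Of the 12 largest rises, 7 passed the filter on low counts in that run and 0 were called. Fam124a was at 0 to 0.0863 CPM, Bfsp1 at 0 to 0.0432 CPM and Pnpla3 at 0.82 to 1.77 CPM in the paired-end Dicer SOM/SOM samples, and Ceacam19 and Defb48 had no count in them. Nfam1 ranged from 0.188 to 17.4 CPM in those samples and from 0 to 8.56 CPM in the controls, so it varied within both genotypes. Pknox2 was at 0.173 to 0.242 CPM in those samples and at 0.0284 to 34.2 CPM in the controls, of which the highest lay above each single-end Dicer SOM/SOM value. Of the 12 largest falls, 5 were called lower (Dicer1, Slco4c1, Olfr1300-ps1, Rbm47 and Tmc7) and 1 higher (Kcnj15). Over all genes tested in both runs, 485 of 894 genes called higher between the alleles (54.3%) were also called higher in the paired-end run, against 7.08% of all 20207 genes. Of those called lower, 155 of 756 (20.5%) were also called lower, against 3.92%.

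The siRNA targets are 197 protein-coding genes that the study drew up from antisense small RNAs of other oocyte data sets. Of 196 tested, 37 (18.9%) were higher and 5 (2.55%) lower in Dicer SOM/SOM than in Dicer dMT/dMT, against 4.03% and 3.32% of all genes. The median log2 fold change of the targets was 0.07, beside 0.01 over all genes, so most of the list moved little. Without replicate 3 the counts were 37 higher and 2 lower, and without any one Dicer dMT/dMT sample 23 to 29 higher and at most 2 lower. Most of the called targets (29) continued in the direction they had taken in Dicer dMT/dMT, while 10 were called against wild type in Dicer SOM/SOM and not in Dicer dMT/dMT. Of the 37 higher targets, 31 were also higher in the paired-end run and 1 was lower. Of all 196 tested targets, 59 were called higher and 3 lower there. Over all genes tested in both runs the shares were 7.08% and 3.92%.

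Lcp1, which encodes the actin-bundling protein plastin 2, is one of these targets. It read 196, 169, 142 and 176 CPM in Dicer dMT/dMT and 462, 467 and 525 CPM in Dicer SOM/SOM, with 54.5 to 73.7 CPM in wild type. The steps were 1.37 and then 1.5 on the log2 scale (adjusted p = 9.32e-05 and 6.46e-05). Sp140, a nuclear body gene of the Sp100 family, read 42.3, 40.9, 40.5 and 49.3 CPM and then 144, 144 and 145 CPM (log2 fold change 1.74, SE 0.09, adjusted p = 5.12e-06). Of its 50-base stretches 57.3% occur in other genes, most of them copies of the same family. Uchl4, a ubiquitin hydrolase gene, rose from 17.1, 15.8, 12.2 and 19.7 CPM to 71.6, 72.9 and 51.1 CPM, and shares 26.2% of its 50-base stretches with Uchl3. Mtfr2, a mitochondrial fission regulator, departed from the rest. It read 24 to 27.7 CPM in Dicer dMT/dMT, within the wild-type range of 24.5 to 28.9 CPM, and 31.8, 108 and 171 CPM in Dicer SOM/SOM. Its paired-end level in Dicer SOM/SOM was 26.7 to 30 CPM. Usp29, named after its values were seen, is the target that turned back: it fell by 0.74 from wild type to Dicer dMT/dMT and rose by 0.61 from there (adjusted p = 0.044).

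Some cytoskeletal genes were higher in Dicer SOM/SOM than in Dicer dMT/dMT, and most members of both lists were not called. Of 17 tested tubulin genes 4 (23.5%, against 4.03% of all genes) were higher and none lower, and 1 was called without Dicer dMT/dMT replicate 1, 2 or 3 or without Dicer SOM/SOM replicate 1. Tuba1a, Tuba1b and Tuba1c, the alpha-tubulins, rose by 0.49, 0.48 and 0.39 on the log2 scale after a larger first step of 1.14, 1.03 and 1.16. Their calls were ended by 5, 4 and 10 of the alternative settings, for Tuba1a and Tuba1c among them leaving out Dicer SOM/SOM replicate 3 (adjusted p = 0.0551 and 0.0691). These genes share 75.5%, 75.1% and 52.7% of their 50-base stretches with other genes, mainly one another, so how reads were split between them is uncertain. Tubb5, a beta-tubulin with 0.0892% shared, rose from 132, 141, 145 and 144 CPM in Dicer dMT/dMT to 176, 183 and 208 CPM (adjusted p = 0.0107). Of 43 actin cytoskeleton genes, with a median of 0.06, 6 were higher (14%, against 4.03% of all genes), of which 2 moved in Dicer SOM/SOM alone. None was lower, although DESeq2 and a filter at 5 CPM each called 3 lower and the replicate block 2. Vcl, which encodes the adhesion protein vinculin, rose from 74.9, 70.5, 60.9 and 75.2 CPM to 169, 153 and 138 CPM (log2 fold change 1.13, SE 0.1, adjusted p = 0.000115). It overlaps Ap3m1 on the other strand over 25.1% of its 50-base stretches, and reads were counted without strand. Msn, which encodes the membrane-actin linker moesin, read 6.49, 7.02, 5.81 and 8.54 CPM in Dicer dMT/dMT, below the wild-type values of 8.58 to 11 CPM though not called there, and 23.2, 12.5 and 12.6 CPM in Dicer SOM/SOM. Actg1, gamma-actin, rose by 0.9, and by 0.49 without replicate 3, which read 124 CPM against 57.4 and 65.2 CPM.

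Of 50 spindle and kinetochore genes 7 were higher (14%, against 4.03% of all genes) and 2 lower (4%, against 3.32%). The list median was −0.01, and 5 of the 9 ran on in the direction of the first step. Kifc1, a minus-end kinesin of the meiotic spindle, rose from 34.9, 36.7, 39.9 and 40.6 CPM to 81.2, 77.9 and 52.1 CPM (log2 fold change 0.9, adjusted p = 0.0039). Its near copy Kifc5b rose by 0.78, and the pair share 39.7% and 37.4% of their 50-base stretches with other genes. Prc1, a crosslinker of the central spindle, rose from 586, 646, 639 and 585 CPM to 918, 883 and 790 CPM. Ndc80, the kinetochore protein that binds microtubules, behaved otherwise: it read 187, 180, 164 and 159 CPM in Dicer dMT/dMT, above 118 to 146 CPM in wild type, and 117, 133 and 104 CPM in Dicer SOM/SOM. Kifc1, Kifc5b and Prc1 are also on the list of siRNA targets.

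In the list of DNA methylation and heterochromatin genes 4 of 32 were higher (12.5%, against 4.03% of all genes) and none lower. The list median was 0.02. Hdac1, a histone deacetylase, rose at each step, from 5.01 to 5.74 CPM in wild type to 12.4, 12.4, 10.3 and 14 CPM and then 31.4, 34.5 and 34.5 CPM. The second step was 1.45 on the log2 scale (SE 0.12, adjusted p = 4.8e-05), it was called in the paired-end run too (2.48, adjusted p = 3.45e-06), and 35.5% of the gene's 50-base stretches occur elsewhere, foremost in the pseudogene Gm10093. Ehmt2, an H3K9 methyltransferase, rose from 1.68 to 3.85 CPM, Dnmt3b, a de novo DNA methyltransferase, from 32.3 to 45.6 CPM and Trim28, a corepressor, from 136 to 187 CPM. In the paired-end run Dnmt3b was called higher (0.71) and Ehmt2 and Trim28 were not (0.36 and −0.03).

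Dicer1 was 1 of the 20 tested members of the small RNA machinery, and 2 others were called, both higher (10%, against 4.03% of all genes). The list median was 0.03. Tsnax, which encodes translin-associated factor X of the C3PO nuclease, read 133, 117, 115 and 135 CPM in Dicer dMT/dMT and 299, 317 and 183 CPM in Dicer SOM/SOM (log2 fold change 1.1, adjusted p = 0.00258), and it also rose in the paired-end run (1.66). Mov10, an RNA helicase associated with Argonaute proteins, rose by 0.85, and by 0.55 without replicate 3. Of 22 piRNA pathway genes 1 was called, higher (4.55%, against 4.03% of all genes). It was the helicase gene Mov10l1, at 14.6 and 19.8 CPM, and 11 of the alternative settings ended that call.

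MicroRNA targets were represented by 20 targets of let-7, whose mature sequence (RefSeq, GRCm38.p6) is given with its seed, bases 2 to 8, in capitals because it is what those mRNAs pair with.
mmu-let-7a-5p: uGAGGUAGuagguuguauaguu
Of the 20, 3 were higher (15%, against 4.03% of all genes) and 1 lower (5%, against 3.32%), with a median of −0.03. Igf2bp1, an mRNA-binding protein and a classical let-7 target, read 0.769 to 1.22 CPM in wild type, 4.63, 5.09, 8.51 and 6.75 CPM in Dicer dMT/dMT and 24, 18.9 and 24.2 CPM in Dicer SOM/SOM (second step 1.83, SE 0.22, adjusted p = 0.000738). The samples of the 3 genotypes did not overlap. Trim71, a ubiquitin ligase gene that is also listed as an siRNA target, rose by 0.66 and Arid3a, a DNA-binding protein gene, by 0.56.

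Gene groups of the oocyte programme held few calls. Over all genes 4.03% were higher and 3.32% lower, and lists this short would hold few calls at those shares. Of 17 oocyte surface and secreted genes and 17 oocyte transcription factors none was called. Of 23 maternal effect genes 1 was lower (Trim24, −0.3, not called in 9 alternatives), of 25 genes of meiotic arrest and resumption 1 was lower (Mapk3, which encodes the kinase ERK1, from 189 to 123 CPM), and of 43 genes of maternal mRNA storage and decay 1 was higher (Tob1, 0.6) and 1 lower (Cpeb4, −0.44). Of 16 tested genes of the 2-cell embryo none differed between the alleles, with a median of 0.09. Beside this, 8 of the 16 were called higher in Dicer dMT/dMT and 10 in Dicer SOM/SOM against wild type (8.06% and 14.5% of all genes), with medians of 1.53 and 1.66. Of 25 genes of double-stranded RNA sensing and the interferon response 2 were higher and 1 lower. Oas3, an oligoadenylate synthetase, read 25.6, 18.9, 18.5 and 18.4 CPM and then 39.1, 44.6 and 52.8 CPM (log2 fold change 1.15, adjusted p = 0.00133). Ifi44, an interferon-induced gene, had means of 0.316 and 0.951 CPM and lost its call in 12 alternatives. Of 23 genes of p53 and cell death Atm was higher (0.71) and Casp8 and Trp73 lower (−0.68 and −0.56), and 12 alternatives ended the call of Trp73.

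Among 79 ribosomal protein genes 4 were higher and 4 lower (5.06% each, against 4.03% and 3.32% of all genes). Rps23 rose by 0.88 and Rpl15 by 0.96, while Rps15a and Rps13 fell by 0.87 and 0.62. All 4 have pseudogene copies that share 5.2% to 37.7% of their 50-base stretches. Of 70 replication-dependent histone genes 3 were higher and 1 lower (4.29% and 1.43%, against 4.03% and 3.32% of all genes). The list median was 0.34, beside 0.01 over all genes. In Dicer SOM/SOM against wild type 24 were higher and 2 lower, beside 14.5% and 14.2% of all genes, with a list median of 0.74. Hist1h1e, a linker histone gene, read 14.7, 13.6, 19.5 and 12 CPM and then 25.4, 35.4 and 86.8 CPM, highest in replicate 3. Hist2h2bb and Hist2h4 rose by 1.75 and 0.77 and Hist1h2bc fell by 0.57, and 7 alternatives ended the call of Hist2h4. Hist2h2bb shares 100% of its 50-base stretches with other genes, Hist1h1e 32% and Hist1h2bc 30.6%, so how their reads were split is uncertain. Of 37 mitochondrially encoded genes 1 was lower (2.7%), the transfer RNA gene mt-Tv (not called in 7 alternatives), with a median of −0.42 for the list. Of 8 tested blood and immune markers 1 was higher (12.5%) and 3 were lower (37.5%), Ighg1, Ighm (not called in 12 alternatives) and Ms4a1. Ighg1, an immunoglobulin constant region, read 54.3 to 59.4 CPM and then 10.3, 32.1 and 10.9 CPM. Ighg1 and Ighm lie on chromosome 12, from positions 113325240 and 113418558, within 10 Mb of Dicer1. The summed level of the whole list of 17 was 183 to 197 CPM in Dicer dMT/dMT and 93 to 143 CPM in Dicer SOM/SOM, 7 of the 17, among them Ptprc, Igkc, Hbb-bs and Hba-a1, were at or under 3 counts in every mutant sample, and their part in the results was not tested.

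**Figure D4:**
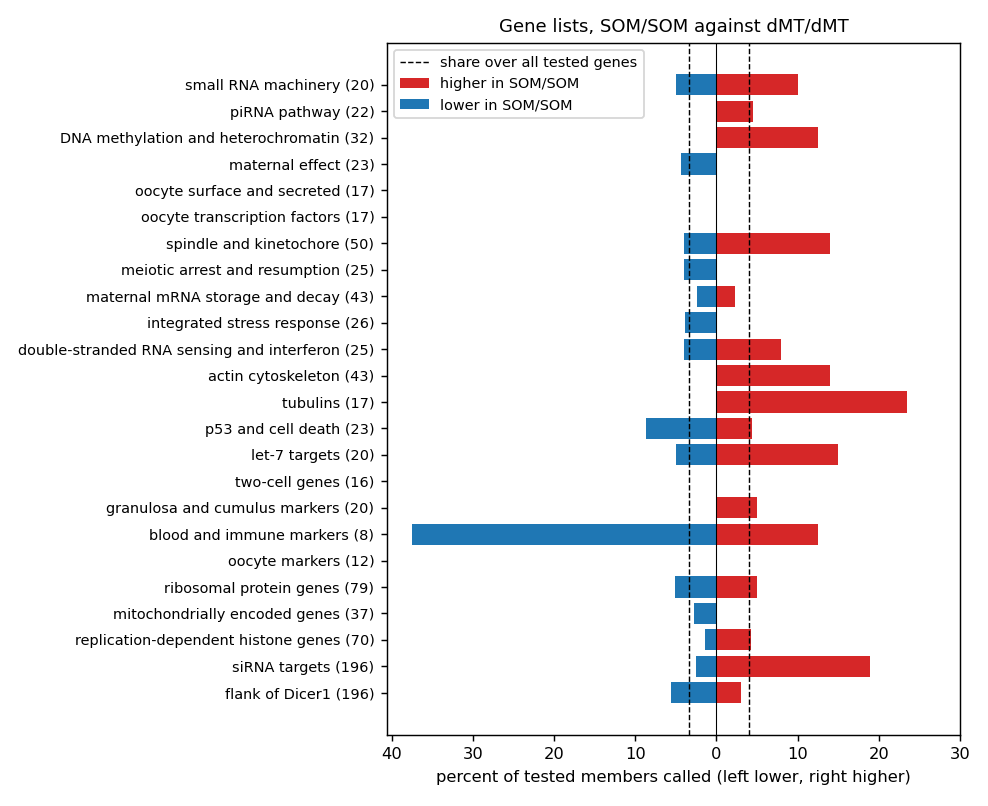
Percent of tested members of each gene list (number tested in brackets) called higher (right) or lower (left) in Dicer SOM/SOM than in Dicer dMT/dMT; dashed lines are the shares over all tested genes, 4.03% and 3.32%. Tubulins reach 23.5% and siRNA targets 18.9% higher, and the blood and immune markers rest on 8 tested genes.

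The 79 genes that turned back went both ways: 42 fell in Dicer dMT/dMT and were higher again in Dicer SOM/SOM, and 37 rose and were lower again. In 71 of them Dicer SOM/SOM was not called against wild type, in 5 it stopped short of the wild-type level and in 3 it went past it. Their number ranged from 28 (without Dicer dMT/dMT replicate 2) to 168 (without Dicer SOM/SOM replicate 3) when 1 sample was left out. Erbb4, a receptor tyrosine kinase of the EGF receptor family, showed the widest swing. It read 3.72, 5.45 and 4.1 CPM in wild type, 0.292, 0.737, 0.356 and 0.674 CPM in Dicer dMT/dMT and 3.83, 1.74 and 1.31 CPM in Dicer SOM/SOM, which is −3.08 and then 2.23 on the log2 scale (adjusted p = 0.000365 and 0.00674). Tmem267 read 12.4 to 17.9 CPM in wild type, 6.36 to 8.72 CPM in Dicer dMT/dMT and 14.4, 14.6 and 18 CPM in Dicer SOM/SOM. Abtb2, a BTB-domain gene, read 6.87 to 8.12, 2.89 to 4.73 and 5.48 to 12.4 CPM. Gcm2, a parathyroid transcription factor gene, was at 20.4 and 20 CPM in replicates 1 and 3 of Dicer SOM/SOM and at 5.69 CPM in replicate 2, inside the range of 5.1 to 6.3 CPM of Dicer dMT/dMT. Its call between the alleles was lost in 8 alternatives, among them without replicate 3 (adjusted p = 0.0755). Ankrd13b and Gm13716 followed the same course at lower levels, with mean levels of 1.2 and 0.736 CPM in Dicer dMT/dMT, and 10 alternatives ended the call of Ankrd13b.

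In the opposite direction, Kcnj15, a potassium channel gene, read 0.827 to 1.2 CPM in wild type, 2.6 to 3.36 CPM in Dicer dMT/dMT and 0.724, 1.12 and 0.145 CPM in Dicer SOM/SOM. Gulp1, an engulfment adaptor, read 4.22 to 5.98, 9.06 to 11.5 and 4.62 to 7.29 CPM. Adam7 and D630023F18Rik rose by 0.92 and 0.91 and fell by 0.93 and 0.95. Of the integrated stress response list, 8 of 26 tested genes were higher in each mutant against wild type (8.06% and 14.5% of all genes), 2 were lower in Dicer dMT/dMT (7.3% of all genes) and none in Dicer SOM/SOM. Between the alleles 1 was called, lower in Dicer SOM/SOM (3.85%, against 3.32% of all genes). That gene was Atf4, the transcription factor at the centre of the response, at 166 to 176 CPM in wild type, 241, 221, 226 and 264 CPM in Dicer dMT/dMT and 145, 190 and 188 CPM in Dicer SOM/SOM, a fall of 0.45 (adjusted p = 0.0284) that 6 alternatives did not call. Cgas, the cytosolic DNA sensor, rose by 0.43 and fell by 0.41.

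In the paired-end Dicer SOM/SOM samples some of these genes kept the direction of Dicer dMT/dMT. Of 41 tested genes that were higher again, 8 were called lower there (19.5%, against 3.92% of all genes) and none higher. Of 34 that were lower again, 8 were called higher (23.5%, against 7.08% of all genes) and none lower. The others were not called in that run. Among the 10 named genes 3 were called higher (Kcnj15, Gulp1 and D630023F18Rik) and 2 lower (Erbb4 and Gcm2), each in the direction of Dicer dMT/dMT. Erbb4 stood at 0.215 and 0.216 CPM in the 2 paired-end Dicer SOM/SOM samples and at 2.55 to 5.03 CPM in the Dicer SOM/WT ones (−4.12, adjusted p = 0.00556). Gcm2 stood at 2.93 to 3.19 CPM against 11.7 to 19.2 CPM (−2.31, adjusted p = 0.000219).

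**Figure D5:**
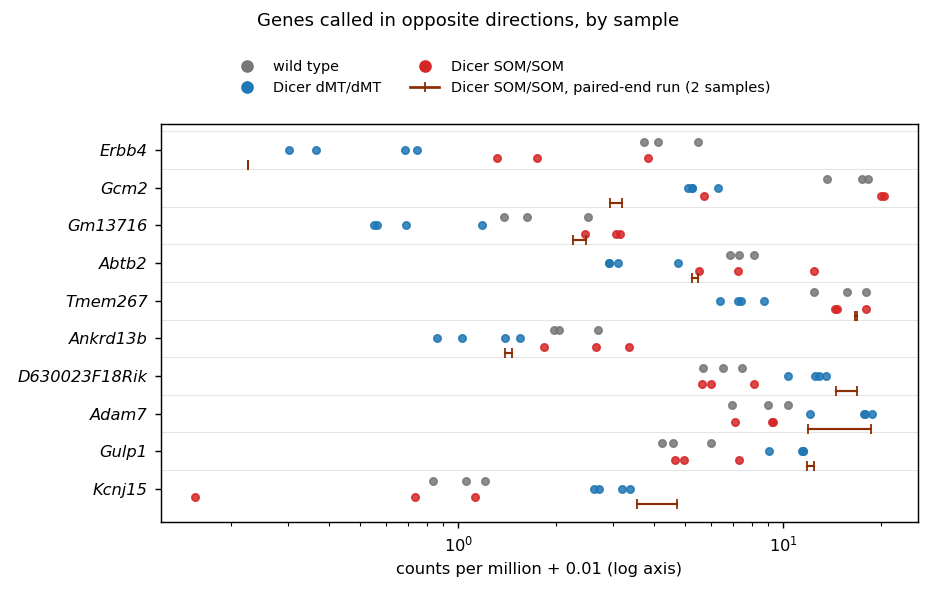
CPM + 0.01 on a log axis for the 10 named genes called in opposite directions from wild type to Dicer dMT/dMT and from there to Dicer SOM/SOM. Points are single-end samples of 3 genotypes and the brown line spans the 2 paired-end Dicer SOM/SOM samples; for Erbb4, Gcm2, Gulp1 and Kcnj15 that line lies near or beyond the Dicer dMT/dMT points.

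Some called genes lay side by side. The windows of 2 Mb described here were drawn after the values were seen. They were taken from those with the highest share called among windows with several called genes. On chromosome 1, between 84 and 86 Mb, 19 of 40 tested genes (47.5%, against 7.35% of all genes) were called, all higher. They include Sp140, Sp110 (log2 fold change 0.93) and the family copies C130026I21Rik (2.28) and A530032D15Rik (1.83). On unplaced contigs assigned to chromosome 1, 16 of 20 tested genes were higher, against 4.03% of all genes. Their median log2 fold change was 1.54 after a first step of 1.29. Sp140 shares 57.3% of its 50-base stretches with other genes, among them C130026I21Rik and A530032D15Rik. Reads were counted as fractions between loci, so entries that share sequence may not be separate changes. On chromosome 6, between 130 and 132 Mb, 13 of 22 genes were called, all lower. On chromosome 2, between 88 and 90 Mb, 6 of 15 were called, all higher and all olfactory receptors, such as Olfr1197 (2.16) and Olfr1200 (2.13). Within 10 Mb of Dicer1 17 of 196 genes (8.67%) were called, beside 9.49% on the rest of chromosome 12. In that flank Spata7, a gene of photoreceptor cilia, read 56, 54.5, 51 and 59.2 CPM and then 231, 155 and 136 CPM. Gm47372 rose by 1.89 and lies within the span of Spata7 on the other strand, with no exon overlap. Reads were counted without strand, so it may not be a separate change. Ighg1 and Ighm, named above among the immune markers, were called lower and lie in this flank too. Snhg10 and 4930477G07Rik fell, both from under 1 CPM, and 11 and 10 alternatives ended these calls (adjusted p = 0.0534 for 4930477G07Rik without Dicer SOM/SOM replicate 3).

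The reference genes were uneven. Hprt, a purine salvage enzyme gene, was at 40.5 to 53.7 CPM in Dicer dMT/dMT and 38.4 to 44 CPM in Dicer SOM/SOM (−0.22, SE 0.13, adjusted p = 0.334). B2m, the MHC class I light chain gene, fell by 0.48 (adjusted p = 0.0415), and 12 alternatives did not call it.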

How the data were processed

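Libraries of pooled GV oocytes were sequenced as single-end, non-stranded reads. The authors aligned them to mm10 (GRCm38) with STAR 2.5.3a, keeping multimapping reads, and assigned them with featureCounts to GENCODE M15 genes without strand, as fractions between loci and overlapping genes. The deposited values are therefore estimated counts: 31.6% are not whole. They were rounded for the tests. Reads from gene copies may be split between them.

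Genes passing filterByExpr (minimum count 10, 23151 of 52636) were fitted over 10 samples (3 wild type, 4 Dicer dMT/dMT, 3 Dicer SOM/SOM) with TMM scaling and edgeR 4.0.16 quasi-likelihood tests (R 4.3.3), with Benjamini-Hochberg adjustment over all genes at 0.05. Checked on simulated counts of this comparison (200 genes changed by 1.5 log2 units), 177 were recovered. The changed genes were drawn from well-counted ones, with the same spread in all genotypes. The median size of the real calls was 0.58 to 0.9 log2 units by pattern, and recovery of changes that small was not tested. CPM values are TMM scaled.

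Named genes were Dicer1, the 12 largest rises and falls (adjusted p under 0.05, at least 1 CPM in a mutant, no overlap, no clone name), up to 4 called members per list, the 10 widest turning genes, 6 near Dicer1, Hprt and B2m. Members and lists were chosen with earlier results of these data known. The paired-end comparison (edgeR quasi-likelihood tests with TMM scaling and filterByExpr) was added after the data were seen. Its fit also held the Mili-DAH/DAH samples of that run, with Dicer SOM/SOM or Dicer SOM/WT. They entered the estimate of spread and the filter, in which the Mili-DAH/DAH, Dicer SOM/WT genotype was grouped with the heterozygous controls. Shared 50-base stretches, exons and symbols come from GENCODE M21 (52403 IDs matched), also GRCm38. Repeat annotations were not used here. The results of 3 named genes are not reported here.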

Additional observations from a re-analysis of the deposited data

Results flagged for a closer look

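Within the 4 Dicer dMT/dMT samples, 1 sample lay apart from the other 3 in 7 of the 90 named genes. Chance raises such a flag in about 1 of 20 groups, so several of these flags may be due to chance. Ceacam19 had 0.0118 CPM in replicate 4 and 0 in the others, which is under the floor of 3 counts. Dnmt3b was at 34.3 CPM in replicate 3 against 31.7 to 31.8 CPM, and Oas3 at 25.6 CPM in replicate 1 against 18.4 to 18.9 CPM. Replicate 4 stood apart in 4 genes that turn back: Gcm2 at 6.3 CPM, against 5.1 to 5.24 CPM, Abtb2 at 4.73 CPM, against 2.89 to 3.09 CPM, Gulp1 at 9.06 CPM, against 11.4 to 11.5 CPM, and Adam7 at 12.1 CPM, against 17.7 to 18.8 CPM. In these last 4 genes replicate 4 was the Dicer dMT/dMT sample nearest to the wild-type values. Its total count, 83243024, was the highest of the 4, and the part of depth in this was not tested.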

How the results depend on the processing

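Dicer1 kept its direction and its call in each alternative tried, at −3.35 to −3.18 on the log2 scale. DESeq2 1.42.0 called 1423 genes higher and 1353 lower, 186 that turn back, 11 siRNA targets lower and 132 list members in place of 87. With at least 1 log2 unit asked of a call, 459 genes were higher and 173 lower, 19 turned back, 5 siRNA targets were higher and 0 lower, and 19 list members were called. A filter at 5 CPM in 3 samples gave 128 genes that turn back and no filter gave 49. The siRNA targets called lower numbered 1 with no filter, 2 with both mutants fitted alone and 3 with counts thinned to the lowest depth. Leaving out 1 sample gave 552 to 1030 genes higher, 347 to 854 lower, 28 to 168 that turn back, 46 to 91 list members, 23 to 37 siRNA targets higher and 0 to 4 lower. The lowest counts of calls came without Dicer dMT/dMT replicate 2 (552 and 347). Without Dicer dMT/dMT replicates 1 and 3 there were 655 and 418, and 602 and 521, and without Dicer SOM/SOM replicate 3 there were 1030 and 762. Genes that turn back numbered 37, 47 and 43 without wild-type replicates 1, 2 and 3, and 37, 28 and 38 without Dicer dMT/dMT replicates 1, 2 and 3. Samples of the same replicate number did not deviate together (r = −0.0251 to 0.054 over 9 pairs), so the numbers were not taken as pairs. With the replicate block 627 genes were higher, 560 lower and 63 turned back, 58 list members were called, and 25 siRNA targets were higher and 1 lower. Of 89 named genes called, 50 kept the call in each alternative. The floor of 0.435 CPM in Dicer SOM/SOM replicate 3 limits what can be said of genes near it.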
